A study of Homo sapiens with 12 samples.

Results

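Estradiol was given for 1 h to T47D cells that had been starved of hormones, and nascent transcription was compared with that of starved cells given vehicle. T47D is an established human breast cancer cell line that expresses estrogen receptor alpha, and the assay, PRO-seq, labels and sequences the RNA that polymerases already at work on a gene add to in isolated nuclei, so it follows transcription and not stored RNA. The comparison uses 4 of the 12 libraries of the series, chosen by their group labels: 2 libraries of starved cells with 1 nM beta estradiol and 2 of starved cells with 0.1% DMSO by volume, all numbered 3 or 4 within their group. Starvation lasted 3 days. The solvent of the estradiol was not stated in the labels, and the growth and treatment text of the labels speaks of serum-containing complete medium for every library, so the starved state rests on the library names and the study's design text. The other 8 libraries are of cells in complete medium with vehicle, fulvestrant, raloxifene or tamoxifen, the drugs at 100 nM for 1 h. Separate cultures are not mentioned for the 2 libraries of a group, so the p-values rest on a spread that may be technical. Of 59410 genes in the table with 1 row per symbol, 23375 passed the filter on low counts and were tested.

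Estrogen receptor alpha, encoded by ESR1, is a nuclear receptor that binds estradiol in its ligand pocket, pairs with a second receptor molecule and binds DNA at estrogen response elements, most of which lie in enhancers away from promoters. The bound receptor recruits coactivators and RNA polymerase II to its target genes and lowers the transcription of others. In luminal breast cells it drives proliferation and the progesterone receptor, and breast cancers that carry it are treated with drugs that block it, such as fulvestrant, raloxifene and tamoxifen.

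The starved libraries held between 5579262 and 7377576 counts. Every level given here is in CPM, the share of a library's counts that fell in a gene, scaled by TMM. A change in a gene and an opposite shift in the rest of the library therefore cannot be told apart. Levels of genes of different length are not compared, apart from rankings by level, gain or loss in CPM, which are not scaled by length. Fold changes are log2 values ± the model's standard error, and a gene is called higher or lower where edgeR's quasi-likelihood test gave a Benjamini-Hochberg adjusted p under 0.05 over all tested genes. The label of the cells was checked against markers: ESR1 read 1036 and 1020 CPM in the vehicle libraries, KRT8, a keratin of luminal cells, 262 and 257, and FOXA1, a pioneer factor of luminal cells, 172 and 178. Of 17 markers of fibroblasts, endothelium and blood cells, 12 were too low to be tested, among them PTPRC with 9 counts and HBB with 0 in the 4 libraries together, and the other 5 summed to 48.2 to 52 CPM with vehicle and 51.5 to 56.4 CPM with estradiol. Of 14 basal and mesenchymal markers 10 were tested, and they summed to 101.2 to 103.9 CPM with vehicle and 90.2 to 96.1 CPM with estradiol. KRT5 and KRT14 were not tested, with 1 and 4 counts in the 4 libraries together. A low count is weak evidence of a silent gene in this table. B2M, which nearly all cells transcribe, had 19 counts in the 4 libraries together and HLA-E 0. The reason was not tested.

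Estradiol raised 1177 genes (5.04% of those tested) and lowered 874 (3.74%). The rises were larger: 289 genes rose and 40 fell at least 2-fold, and 58 rose and 1 fell at least 4-fold. The median log2 fold change was 0.57 among the genes called higher and -0.42 among those called lower. The libraries of the 2 groups did not overlap for any called gene, but this held for 49.4% of all tested genes too. Where such separation is mentioned below for a named gene, it describes the values and adds no support to the call. Calls depended on depth: in the 25% of genes with the lowest counts 1.0% were called higher and 0.2% lower. In the 25% with the highest counts 11.1% were called higher and 9.2% lower. Counts of calls in the gene lists below are to be read beside these shares. Of the called genes 57.4% were higher, and without TMM scaling 45.7% were, with 1024 higher and 1217 lower, while the median over all genes moved from -0.013 to -0.050. DESeq2 called 702 genes higher and 376 lower, and leaving out 1 of the 4 libraries left 701 to 822 higher and 443 to 504 lower, with the fewest higher genes without vehicle library 4, where 18 genes in place of 40 fell at least 2-fold. No gene called in one direction was called in the other under any of these settings.

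**Figure D1:**
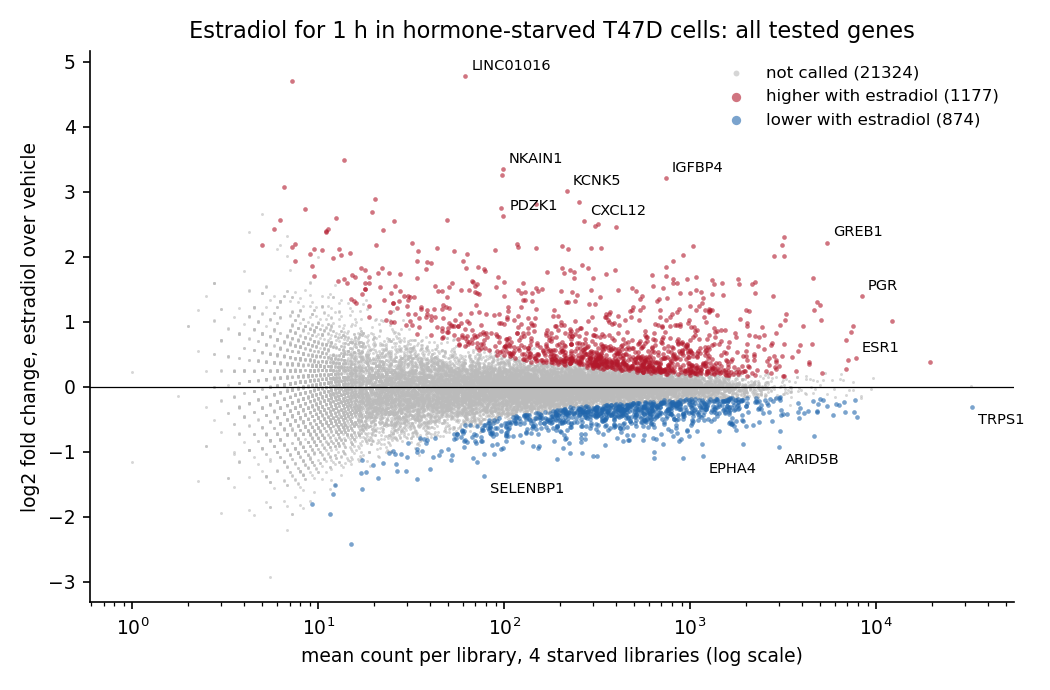
Log2 fold change of each tested gene with estradiol against its mean count in the 4 starved libraries, on a log axis. Red points are the 1177 genes called higher and blue points the 874 called lower; the rises reach 4.78 for LINC01016, while most called genes lie within 1 of no change.

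Among 41 tested genes of nuclear receptors, the family of estrogen receptor alpha, 4 rose (9.8%) and 8 fell (19.5%). PGR, the progesterone receptor, read 763 and 704 CPM with vehicle and 1894 and 1973 with estradiol, a log2 fold change of 1.40 ± 0.059 (edgeR adjusted p = 8.7e-13). RARA, a retinoic acid receptor, went from 245 and 242 to 670.2 and 614 CPM, a change of 1.40 ± 0.0614. Both rose far more than the spread between their libraries. ESR1 rose less, from 1036 and 1020 to 1357 and 1424 CPM (0.44 ± 0.04, adjusted p = 1.0e-07), and ESR2, which encodes the beta receptor, from 29.3 and 25.3 to 54 and 45.5 CPM (0.87 ± 0.107). Among the receptors that fell were NR2F1, a COUP-TF orphan receptor, from 7.58 and 9.21 to 3.89 and 4.02 CPM (-1.08 ± 0.259), the glucocorticoid receptor NR3C1 (-0.44 ± 0.0913), the mineralocorticoid receptor NR3C2 (-0.36 ± 0.0876), HNF4G (-0.83 ± 0.224), the thyroid hormone receptor THRA (-0.46 ± 0.13), RARG (-0.30 ± 0.0941) and the vitamin D receptor VDR (-0.23 ± 0.0604). Apart from NR2F1 and HNF4G, these falls were smaller than 0.5, and DESeq2 called 0 of the list lower and 4 higher.

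Among 30 tested coactivators and corepressors of such receptors, 3 rose (10.0%) and 4 fell (13.3%). GREB1, an estrogen receptor cofactor that is itself a textbook target, read 329 and 294 CPM with vehicle and 1487 and 1410 with estradiol (2.22 ± 0.0548, adjusted p = 2.1e-16). NRIP1, which restrains ligand-bound receptors, went from 140.2 and 141 to 298 and 307 CPM (1.11 ± 0.0645), and PRMT1, an arginine methyltransferase, changed by 0.39 ± 0.111. The genes that fell were TLE1 (-0.68 ± 0.0558), a corepressor of the Groucho family, NCOA3 (-0.43 ± 0.0531) and NCOA2 (-0.17 ± 0.0509), coactivators of the p160 family, and TBL1XR1 (-0.21 ± 0.0459), a part of corepressor complexes. Coactivator and corepressor genes were both among those that fell.

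Of 44 genes widely known as induced by estrogen, 41 were tested, and 38 rose and none fell, with a median log2 fold change of 1.43 against -0.013 over all tested genes. The list was drawn up with such responses known and is not independent evidence of its direction. TFF1, EGR3 and IL20 had 20, 6 and 6 counts in the 4 libraries together and were not tested. The members that were not called were CELSR2 (0.21), RERG (0.22) and PKIB (0.22). IGFBP4, a secreted protein that binds insulin-like growth factors, read 26 and 21.2 CPM with vehicle and 227 and 210.2 with estradiol (3.21 ± 0.0981, adjusted p = 3.6e-15). CXCL12, a chemokine, went from 13 and 12.7 to 76.7 and 73.6 CPM (2.55 ± 0.127). PDZK1, a scaffold for membrane transporters, went from 4.61 and 4.38 to 28.1 and 27.6 CPM (2.63 ± 0.191). In all 3 genes the libraries of a group lay close together and far from the other group. CA12, a membrane carbonic anhydrase, rose from 182 and 181 to 732 and 726 CPM (2.00 ± 0.0515), and CTSD, the lysosomal protease cathepsin D, from 56.8 and 54.5 to 200.2 and 160.5 CPM (1.70 ± 0.11). CCND1, which encodes cyclin D1, rose less than these, from 64.5 and 62.4 to 112 and 89.1 CPM (0.67 ± 0.115), and XBP1, a factor of secretory cells, from 156 and 149 to 258 and 293 CPM (0.85 ± 0.0911).

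The steepest rise among genes with a mean of at least 50 counts was that of LINC01016. This long non-coding RNA gene, at chromosome 6, 33889511 to 33896907 of GRCh38, had 4 and 6 counts with vehicle and 127 and 110 with estradiol, which is 0.542 and 0.877 against 19.8 and 20.1 CPM (4.78 ± 0.273, adjusted p = 5.7e-11). It was one of 27 genes called higher from a vehicle mean under 1 CPM. The next in level after estradiol were TGM2, which encodes a transglutaminase, with 8 and 3 counts against 42 and 28, and SEC14L6 with 5 and 7 against 31 and 35. At such counts the size of a fold change is poorly fixed, as the standard error of 0.429 for TGM2 shows. NKAIN1 went from 2.3 and 3.51 to 29.4 and 29.8 CPM (3.35 ± 0.21), and GATA4, a zinc finger factor best known in heart and gut, from 2.3 and 3.8 to 30.6 and 27.2 CPM (3.25 ± 0.198). KCNK5, a 2-pore potassium channel, went from 8.4 and 7.31 to 62.4 and 64.6 CPM (3.01 ± 0.13), and RET, the receptor tyrosine kinase for GDNF ligands, from 4.06 and 4.09 to 31.1 and 23.4 CPM (2.74 ± 0.187). RET differed more between its estradiol libraries than GATA4 or KCNK5 did, yet both lay above both vehicle libraries.

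In CPM, the share of the library with no scaling by gene length, the 3 largest gains among called genes were those of GSE1, PGR and GREB1. Steeper in relative terms but smaller in CPM was the gain of B4GALT1, which encodes a galactosyltransferase of the Golgi and went from 182 and 169.8 to 886 and 852 CPM (2.30 ± 0.0646, adjusted p = 1.2e-15). Also among the 15 largest gains were FMN1, which encodes a formin that nucleates actin filaments, from 188 and 181 to 828 and 839.6 CPM (2.17 ± 0.052), and CADM1, a cell adhesion molecule, from 209 and 203 to 798 and 863 CPM (2.01 ± 0.0586). KDM4B and SEPTIN9 belonged to them too, and for both of these and GSE1 estradiol library 3 read above library 4. GSE1 read 2790 and 2326 CPM in those libraries against 1307 and 1226 with vehicle (1.01 ± 0.103), KDM4B, a histone demethylase, 1173 and 839 against 487 and 400.2 (1.18 ± 0.135), and SEPTIN9 1193 and 945 against 526 and 522 (1.03 ± 0.116). Over all 1177 genes called higher, library 3 was the higher estradiol library for 51.4%.

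Transcription factor genes moved both ways. In the list of the MYC network and the MYB family 5 of 16 tested genes rose and none fell. MYC, a driver of growth genes, read 57.2 and 45.5 CPM with vehicle and 154 and 146 with estradiol (1.54 ± 0.0958), and its partner gene MAX 126 and 127 against 188 and 183 (0.55 ± 0.0631). MYB rose from 16 and 14.6 to 80.4 and 90.8 CPM (2.48 ± 0.12, adjusted p = 5.2e-12) and MYBL1 from 85.3 and 83.8 to 186 and 201 CPM (1.19 ± 0.0951). The groups did not overlap in any of them, as in every called gene. The non-coding gene PVT1, which lies beside MYC, changed by 0.41 ± 0.0467. RUNX1, a Runt family factor, went from 354 and 349 to 1150 and 1099 CPM (1.68 ± 0.0507, adjusted p = 3.4e-15).

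Among 20 tested factors of luminal identity 7 rose and 5 fell. Besides MYB, ESR1 and XBP1, the genes that rose were GRHL2, an epithelial grainyhead factor, from 845 and 818 to 1456 and 1515 CPM (0.84 ± 0.0435), ELF3 (0.53 ± 0.0691), ZNF703 (0.50 ± 0.109) and TFAP2C (0.30 ± 0.0861). FOXA1 fell from 172 and 178 to 125 and 143 CPM (-0.39 ± 0.0687, adjusted p = 4.9e-04), and TFAP2A, which encodes the AP-2 alpha factor, from 406 and 433 to 281 and 297 CPM (-0.54 ± 0.0523). SOX13 (-0.57 ± 0.0692), ELF5 (-0.45 ± 0.0632) and TRPS1 (-0.31 ± 0.0461) fell too, so that the AP-2 genes TFAP2A and TFAP2C were called in opposite directions. Among luminal keratins KRT8 (0.48 ± 0.058), KRT18 (0.33 ± 0.0665) and KRT19 (0.39 ± 0.0824) rose, and KRT7 (-0.39 ± 0.079) and KRT80 (-0.40 ± 0.0657) fell.

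Immediate-early genes, which serum and growth factors switch on within minutes in many cells, showed 8 rises and 1 fall among 31 tested. FOSL2, an AP-1 subunit, went from 50.9 and 59.9 to 113 and 113 CPM (1.02 ± 0.0893), MAFF, a small MAF factor, from 6.09 and 4.97 to 19.1 and 19.9 CPM (1.81 ± 0.175), and FOS, the founding AP-1 subunit, from 8.53 and 10.4 to 16 and 25.6 CPM (1.12 ± 0.24). JUND (0.67 ± 0.104), ATF3 (0.46 ± 0.0706), ZFP36 (0.78 ± 0.105), IER3 (0.76 ± 0.162) and IER5L (0.39 ± 0.116) rose as well. ZFP36L2, which like ZFP36 encodes a protein that promotes mRNA decay, fell from 76.4 and 64.3 to 45.1 and 48.4 CPM (-0.59 ± 0.109). Of 19 KLF and SP factors none rose in edgeR's test, none rose in DESeq2's, 3 had an unadjusted p under 0.05 on the higher side, and KLF3 (-0.75 ± 0.0789), KLF8 (-0.57 ± 0.0865) and KLF12 (-0.44 ± 0.135) fell.

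**Figure D2:**
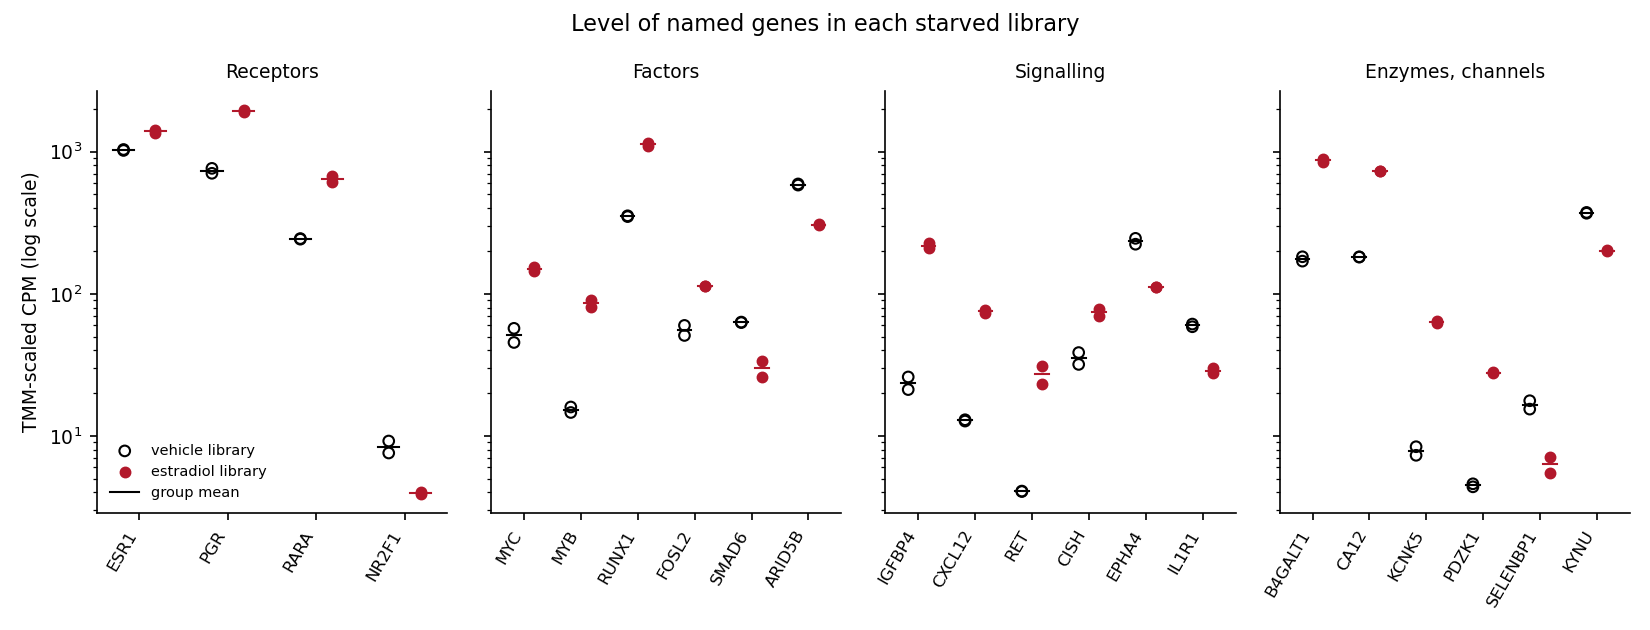
TMM-scaled CPM on a log axis of 22 named genes in the 2 vehicle libraries (open circles) and the 2 estradiol libraries (red), with a line at each group's mean. The groups stand apart in every gene shown, as in every called gene, from the rise of IGFBP4 to the fall of SELENBP1, while ESR1 moves little.

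Growth factor signalling genes moved both ways. Among growth factor receptors and adaptors 5 rose and 6 fell of 25 tested. IGF1R, the receptor of insulin-like growth factor 1, went from 481 and 475 to 705 and 699.9 CPM (0.56 ± 0.044), with GRB10 (0.77 ± 0.0527), IRS1 (0.42 ± 0.126) and GAB2 (0.30 ± 0.0589) among the other rises. ERBB2, the HER2 receptor, fell from 205 and 187 to 140.0 and 134 CPM (-0.52 ± 0.0754, adjusted p = 6.2e-05) and ERBB3 from 186 and 186 to 142 and 142 CPM (-0.39 ± 0.0645). GRB14 (-0.77 ± 0.168), GAB1 (-0.35 ± 0.0591), FGFR1 (-0.33 ± 0.0917) and FGFR2 (-0.23 ± 0.0662) fell too. Of their ligands, 23 were tested: AREG and TGFA, ligands of the EGF receptor, rose by 1.06 ± 0.137 and 1.07 ± 0.0967, whereas EGF changed by -0.46 ± 0.111, PDGFC by -0.39 ± 0.0797 and FGF12 by -0.27 ± 0.0832. TGFA read 34.8 and 37.4 CPM with vehicle and 77.5 and 74.1 with estradiol. DESeq2 called 3 of the 6 receptor and adaptor falls and 0 of the ligand falls. Of 10 genes of IGF binding proteins and the stanniocalcins that act with them, 4 rose: IGFBP4, IGFBP5 (0.47 ± 0.0699), STC1 (1.29 ± 0.291) and STC2 (1.12 ± 0.0757).

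In cytokine and chemokine signalling 7 of 28 tested genes rose and 2 fell. JAK1, a kinase that cytokine receptors use, went from 195 and 188 to 548 and 493 CPM (1.45 ± 0.0561, adjusted p = 2.2e-13), IL6ST, the shared receptor chain gp130, from 117 and 118 to 255 and 276 CPM (1.18 ± 0.0668), and CISH, a feedback inhibitor, from 38.6 and 31.9 to 78.4 and 70.3 CPM (1.08 ± 0.101). These 3 genes encode a receptor, its kinase and an inhibitor, and each lay well above its vehicle libraries. The receptor gene IL1R1 fell from 58.6 and 61.2 to 27.5 and 30.1 CPM (-1.06 ± 0.091), and GHR, the growth hormone receptor, from 745 and 726 to 564 and 566 CPM (-0.38 ± 0.052). Of 21 genes that feed back on MAP kinases 5 rose, PHLDA1 (1.17 ± 0.0784), ERRFI1 (0.62 ± 0.0735) and the phosphatases DUSP1 (0.47 ± 0.124), DUSP4 (0.65 ± 0.136) and DUSP6 (0.78 ± 0.171), and 2 fell, SPRY1 (-0.84 ± 0.117) and SPRED1 (-0.48 ± 0.141). DESeq2 called 3 of them higher.

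Of 28 secretory and mucosal genes 14 were tested, of which 8 rose, none fell and 6 were not called. SPINK4, a protease inhibitor of mucus-producing cells, went from 10.7 and 9.5 to 69.4 and 76.5 CPM (2.84 ± 0.128, adjusted p = 1.7e-12). SERPINA6, which encodes corticosteroid-binding globulin, went from 96.7 and 99.4 to 259 and 278 CPM (1.45 ± 0.0883), and its neighbour SERPINA1, alpha-1 antitrypsin, from 19.9 and 20.5 to 51.3 and 47.8 CPM (1.30 ± 0.107). AGR3, a disulfide isomerase relative, changed by 1.23 ± 0.118, the trefoil factor TFF3 by 1.53 ± 0.316 and clusterin, CLU, by 1.02 ± 0.0767. The scaffold genes NHERF1 and PDZK1, whose products hold membrane proteins together, rose by 1.65 ± 0.0701 and 2.63 ± 0.191 among 12 tested scaffold and linker genes, of which 3 rose.

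Channels and transporters gave a mixed picture. Of 64 potassium channel genes 5 rose (7.8%) and 3 fell (4.7%), beside 5.04% and 3.74% of all tested genes. Nothing is read from these counts. The 2-pore channel genes KCNK5, KCNK6 (1.38 ± 0.094) and KCNK15 (1.49 ± 0.224) rose while KCNK2, of the same family, fell from 329 and 344 to 244 and 227 CPM (-0.51 ± 0.0697). KCNH1 went from 201 and 184 to 453 and 422 CPM (1.18 ± 0.0779) and KCNQ5 from 82.6 and 86.1 to 161 and 159.8 CPM (0.93 ± 0.0913). Of 262 solute carriers 22 rose (8.4%) and 16 fell (6.1%). Without TMM scaling 20 rose and 20 fell, so no balance can be read. SLC7A5, the large neutral amino acid transporter, rose from 267 and 258 to 536 and 458 CPM (0.92 ± 0.078), SLC22A5, the carnitine transporter, from 41.2 and 39.2 to 112 and 120.0 CPM (1.53 ± 0.0851), and SLC2A1, the glucose transporter GLUT1, from 43.5 and 35.5 to 69.8 and 66.3 CPM (0.78 ± 0.0978).

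Genes of ribosome production rose by small amounts in large numbers. Of 48 ribosome biogenesis genes 19 rose and none fell, with a median of 0.31, and of 76 cytosolic ribosomal protein genes 40 rose and none fell, with a median of 0.29 and 75 above 0. DDX21, a helicase of the nucleolus, went from 74.2 and 79.7 to 122 and 132 CPM (0.72 ± 0.082), NOLC1 from 44.1 and 38.1 to 61.9 and 65.7 CPM (0.63 ± 0.0934), and NOP16 from 18.1 and 13.9 to 30.2 and 28.1 CPM (0.86 ± 0.141). RPS14 went from 106 and 105 to 138 and 141 CPM (0.40 ± 0.0651) and RPL38 from 73.8 and 71.2 to 94.6 and 98.8 CPM (0.41 ± 0.0676). Each of these shifts was larger than the spread between its libraries, but the number of calls depended on the tool and the libraries: DESeq2 called 11 biogenesis genes and 12 ribosomal protein genes higher, and leaving out 1 library left 10 to 14 and 10 to 28. Without TMM scaling the medians were 0.27 and 0.25. Ribosomal protein genes have near-identical pseudogene copies, so their counts are uncertain.

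Other growth and stress programmes moved in single genes. In glycolysis and hypoxia 4 rose (13.3%) and 3 fell (10.0%) of 30. PFKFB3, which makes the allosteric activator of glycolysis, rose from 492 and 442 to 1200 and 1032 CPM (1.26 ± 0.0699). HK1 (0.66 ± 0.0536), HK2 (0.40 ± 0.105) and SLC2A1 rose too, while ENO1 (-0.34 ± 0.0814), EGLN3 (-0.27 ± 0.0584) and EPAS1 (-0.39 ± 0.0574) fell. Of 26 heat shock proteins and chaperones of steroid receptors 7 rose and none fell. HSPB8, a small heat shock protein, went from 51.9 and 56.1 to 206 and 206 CPM (1.93 ± 0.0747), FKBP4, a co-chaperone of steroid receptors with HSP90, from 79.4 and 85.5 to 272 and 256 CPM (1.68 ± 0.0675), and HSP90AB1 itself from 74.9 and 76.5 to 96.9 and 109.9 CPM (0.45 ± 0.0915). In cholesterol and fatty acid synthesis 3 rose (8.1%) and 1 fell (2.7%) of 37, beside 5.04% and 3.74% of all tested genes. FDFT1, squalene synthase, changed by 0.63 ± 0.0817. Of 22 targets of progestins, androgens and glucocorticoids 5 rose, among them TIPARP (2.02 ± 0.103), which silences the aryl hydrocarbon receptor, and TMPRSS2 (1.01 ± 0.103), and none fell.

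Falls were shallower than rises. The deepest among genes with a mean of at least 50 counts was SELENBP1, a selenium-binding protein, from 15.4 and 17.7 to 7.16 and 5.48 CPM (-1.37 ± 0.19, adjusted p = 2.9e-05). LRIG3, a membrane regulator of growth factor receptors, fell from 188 and 184 to 81.8 and 91.8 CPM (-1.10 ± 0.0804), ST8SIA1, which makes the ganglioside GD3, from 39.1 and 39.3 to 19.3 and 16.6 CPM (-1.12 ± 0.156), and ZNF608 from 133 and 125 to 60.04 and 61.4 CPM (-1.09 ± 0.0826). In each of these genes both estradiol libraries lay far below both vehicle libraries, but the rule that took them allowed no overlap. ARID5B, which encodes a DNA-binding partner of a histone demethylase, fell from 582 and 593 to 308 and 307 CPM (-0.94 ± 0.0538, adjusted p = 7.0e-11). The largest loss in CPM among called genes, again not scaled by gene length, was that of TRPS1. It went from 5505 and 5527 to 4331 and 4564 CPM, with a far smaller relative change of -0.31. KYNU, an enzyme of tryptophan breakdown, fell from 374 and 369 to 204 and 199 CPM (-0.88 ± 0.0501), and PTPN14, a phosphatase that restrains YAP, from 888 and 859.8 to 521 and 514 CPM (-0.76 ± 0.0623).

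Several signalling pathways held more falls than rises in edgeR's test. In the TGF-beta and BMP pathway 6 fell (16.2%) and 3 rose (8.1%) of 37 tested. SMAD6, an inhibitor of BMP signals, fell from 63.2 and 62.7 to 33.8 and 26.1 CPM (-1.06 ± 0.103), the ligand genes TGFB2 from 171 and 161 to 98.2 and 88 CPM (-0.83 ± 0.0959) and TGFB3 by -0.57 ± 0.0725, and SMAD3, which carries the signal to the nucleus, by -0.45 ± 0.0718. SKIL, a repressor of that signal, rose (0.52 ± 0.0674), as did INHBA (1.03 ± 0.236) and LTBP1 (0.30 ± 0.0648). A ligand, a transducer and an inhibitor were thus among the genes that fell. In the Wnt pathway 8 fell and 2 rose of 32: the receptor FZD4 fell from 29.5 and 30.3 to 14.6 and 16.4 CPM (-0.95 ± 0.12), RNF43, which removes Wnt receptors, from 58 and 60.1 to 37.2 and 35.4 CPM (-0.70 ± 0.0931), and the nuclear effectors TCF7L1 and TCF7L2 by -0.55 ± 0.0697 and -0.39 ± 0.0525, while WNT4 (0.68 ± 0.14) and ZNRF3 (0.34 ± 0.0769) rose. In axon guidance 10 fell (21.7%) and 3 rose (6.5%) of 46. EPHA4, an ephrin receptor, fell from 246 and 223 to 112 and 112 CPM (-1.07 ± 0.0678, adjusted p = 3.4e-10), NRP1, a co-receptor of semaphorins and VEGF, from 13.3 and 14.2 to 6.69 and 6.03 CPM (-1.10 ± 0.226), and NTN4, a netrin, from 87 and 84.6 to 56.5 and 45.6 CPM (-0.74 ± 0.0963). The rises there were all semaphorins, SEMA3C (0.66 ± 0.0647), SEMA3F (0.76 ± 0.1) and SEMA6A (0.72 ± 0.0872), and SEMA4B (-0.30 ± 0.0885) fell. DESeq2 called 5 genes of the TGF-beta list lower and 2 higher, and 6 of the Wnt list lower and 1 higher. In the guidance list it called 4 lower and 3 higher, so the excess of falls there depended on the tool.

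Genes described as repressed by estrogen followed that description only in part, with 11 of 18 lower and 3 higher and log2 fold changes from -1.01 to 1.60. EFEMP1, an extracellular matrix protein, fell from 123 and 129.5 to 61.3 and 64.5 CPM (-1.01 ± 0.0908) and CCNG2, a cyclin of growth arrest, from 119 and 121 to 62.4 and 76.5 CPM (-0.80 ± 0.0867). Among those that rose, BCL6, a transcriptional repressor, went from 116 and 111 to 164 and 171 CPM (0.56 ± 0.0585) and IGFBP5 from 361 and 379 to 506 and 516 CPM. Like the induced list, this one was drawn up with such responses known.

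In the lists above with rises and no fall, members lower at an unadjusted p under 0.05 in edgeR's test numbered 3 in the MYC and MYB list, 3 among the targets of progestins, androgens and glucocorticoids and 1 among the heat shock proteins and chaperones. They numbered 0 in the lists of estrogen-induced, secretory, ribosome biogenesis, ribosomal protein, scaffold and IGF binding protein genes, and DESeq2 called 0 genes lower in any of these lists. Other lists held few calls or none at this time point. Of 25 mitosis genes none was called by edgeR, 0 higher and 0 lower by DESeq2, and 1 higher and 0 lower had an unadjusted p under 0.05. For 58 replication-dependent histone genes the counts were none by either tool, with 0 higher and 0 lower at that unadjusted level, and for 18 genes of the BCL2 family none by either tool, with 1 and 0. Among 36 genes of the G1/S step and replication CCND1 and GINS2 (0.61 ± 0.0994) rose and SKP2 (-0.40 ± 0.108) fell. That is 5.6% and 2.8% of the list, beside 5.04% and 3.74% of all tested genes. BCL2 itself, a survival gene known as an estrogen target, read 4.47 and 5.85 CPM with vehicle and 7.78 and 7.49 with estradiol (0.57 ± 0.221, adjusted p = 0.13). The difference did not pass the test at a depth of 41 counts per library on average. RIGI (-0.51 ± 0.12), MX2 (-1.18 ± 0.354) and OAS3 (-0.35 ± 0.106) fell among 36 interferon and antigen presentation genes in edgeR's test, and DESeq2 called 0 of them. ACTB changed by -0.03 ± 0.0714 and GAPDH by 0.11 ± 0.11, neither called, though 5 of 17 housekeeping genes rose, including TFRC, the transferrin receptor (0.94 ± 0.0587).

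**Figure D3:**
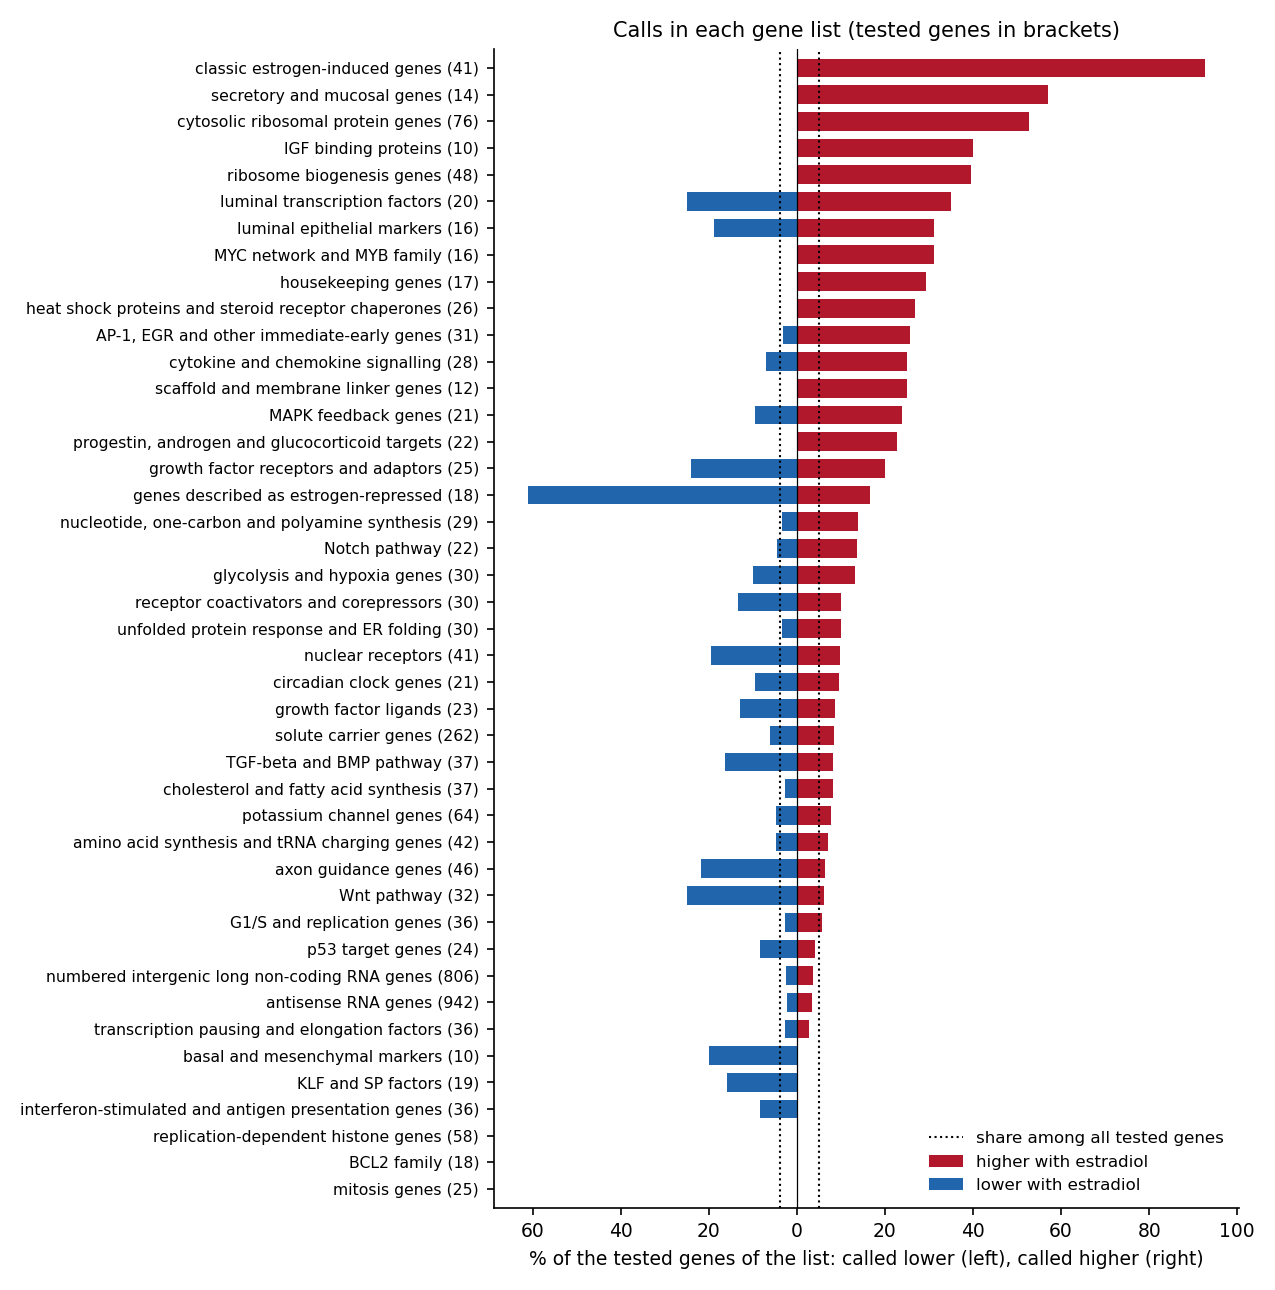
Percent of the tested genes of each list called higher (red, right) and called lower (blue, left) with estradiol, for the lists with at least 10 tested genes; dotted lines mark the shares among all tested genes, 5.04% and 3.74%. Classic estrogen-induced genes reach 92.7% higher, and mitosis, histone and BCL2 family genes show no call.

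Of 806 numbered intergenic long non-coding RNA genes 29 rose (3.6%) and 20 fell (2.5%), and of 942 antisense RNA genes 33 rose (3.5%) and 21 fell (2.2%), beside 5.04% and 3.74% of all tested genes. Without TMM scaling the counts were 24 and 28 for the first and 32 and 32 for the second, so no balance can be read. LINC02568, which lies beside CA12, went from 13.4 and 13.2 to 61.1 and 53.7 CPM (2.11 ± 0.121), and LINC02457 from 24.4 and 21.8 to 69.4 and 77.8 CPM (1.67 ± 0.095). SIAH2-AS1, annotated opposite SIAH2, went from 63 and 54.7 to 168 and 170.2 CPM (1.52 ± 0.0729) beside 1.43 ± 0.0714 for SIAH2. No source names the strand setting of the counts, so reads of an antisense gene and its partner cannot be told apart.

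Called genes lay next to one another. Of 1040 genes called higher with a known position, the nearest tested gene that did not overlap them was also higher for 27.4%, against 4.4% for genes that were not called. For 785 genes called lower the nearest such gene was lower for 14.5%, against 3.7%. Neighbours can share reads or read-through transcription, which was not tested. There were 55 stretches of at least 3 neighbouring tested genes all called higher and 12 all called lower, and of those with at least 4 genes 19 were higher and 1 lower. Unlike the neighbours above, genes of a stretch could overlap, so the same locus can count more than once. In the stretch of MICOS10, MICOS10-NBL1 and NBL1, 2 genes overlapped the one before. No expected number of stretches was computed.

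The stretch around RUNX1 on chromosome 21 shows how members of such a row differed. CLIC6, an intracellular chloride channel gene (chromosome 21, 34668994 to 34718223), went from 20.6 and 18.6 to 47.8 and 49.5 CPM (1.31 ± 0.113). LINC00160 went from 7.18 and 4.97 to 39.8 and 46 CPM (2.80 ± 0.159), LINC01426 from 5.69 and 5.7 to 19.6 and 19.5 CPM (1.78 ± 0.191), and RUNX1 (chromosome 21, 34787801 to 35049302) rose by 1.68. The steepest change lay in the middle of the row, at LINC00160. On chromosome 9 DNAJA1 (0.67), SMU1 (0.28), B4GALT1 (2.30), B4GALT1-AS1 (1.20), SPINK4 (2.84) and BAG1 (1.19), which encodes a chaperone regulator, all rose, with the steepest changes at SPINK4 (chromosome 9, 33240167 to 33248567) and B4GALT1 (chromosome 9, 33104077 to 33185089). On chromosome 10 the steepest change of TRIM8 (1.09), ARL3 (1.34), SFXN2 (1.66) and WBP1L (0.42) was at SFXN2, a mitochondrial transporter, which went from 143 and 135 to 450.3 and 429 CPM. On chromosome 3 KCTD6 (2.14) and ACOX2 (1.82), a peroxisomal oxidase gene, rose more than PXK (0.93), PDHB (0.93), HTD2 (0.54) and RPP14 (0.48). The row of lower genes was on chromosome 11, PRSS23-AS1 (-1.17), FZD4 (-0.95), FZD4-DT (-0.52) and TMEM135 (-0.35).

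Rises and falls differed by gene length. Genes were grouped by their span on GRCh38, and of 4632 tested genes up to 10 kb long 4.7% rose and 1.0% fell, whereas of 3660 genes over 100 kb 6.2% rose and 9.9% fell. Longer genes hold more counts, with a median of 55.1 per library in the first class and 296.9 in the last. Within the 25% of genes with the highest counts 22.8% rose and 3.1% fell up to 10 kb, and 10.6% rose and 15.5% fell over 100 kb, where the median counts were 501.6 and 894.5. The short class there held only 294 genes, of which 67 rose. Cytosolic ribosomal protein genes, of which 40 of 76 rose, were not set apart, so their part in these shares is not known. The longest genes called higher included KAZN (0.33 ± 0.0824), GPC6 (0.27 ± 0.0651) and DSCAM (0.56 ± 0.0626), a neural adhesion molecule that went from 254 and 250.4 to 362 and 379.5 CPM. No source names the part of each gene that was counted, so polymerases near the start and in the body cannot be told apart.

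**Figure D4:**
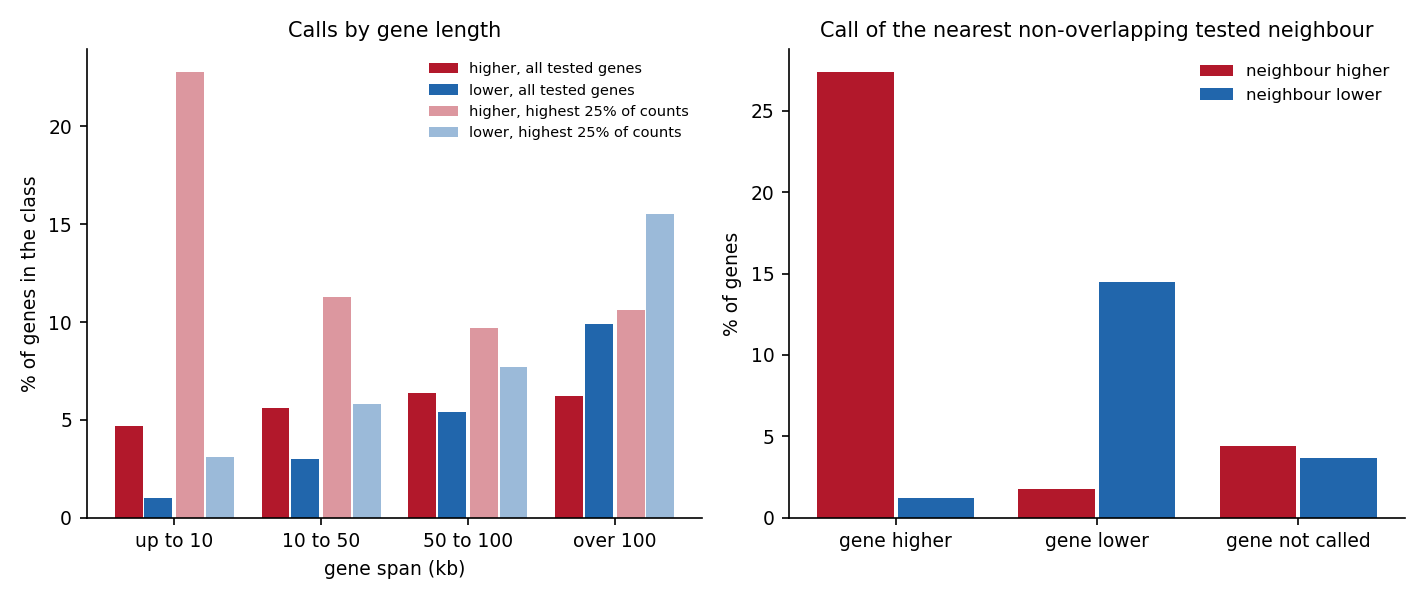
Left, percent of genes called higher (red) and lower (blue) by gene span, for all tested genes (dark) and for the 25% with the highest counts (pale). Right, percent of genes called higher, called lower and not called whose nearest non-overlapping tested neighbour was called higher (red) or lower (blue); calls of the same direction lie together, at 27.4% and 14.5%.

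Promoter windows of RefSeq, from 250 bases before to 50 after each annotated start on GRCh38.p14, were searched for the estrogen response element, GGTCA and TGACC 3 bases apart, which reads the same on both strands. Windows of 1 gene or of neighbours can overlap. Only 799 of the 1177 genes called higher and 611 of the 874 called lower had a window. GREB1 and FKBP4 had none and were not searched. Few held the element: 2 of 1239 windows of genes called higher (0.161%), none of 1091 windows of genes called lower, and 0.0463% of windows of tested genes that were not called, with 0.057% over all windows of the table. With up to 1 base off, the shares were 1.13% (14 windows), 0.55% (6) and 0.52% (90), and 1.72% (4 of 232) for genes that rose at least 2-fold. The shares of called genes thus rest on few windows, and the one of MICOS10 and MICOS10-NBL1 was counted for both genes. The E box CACGTG was in 10.5% of windows of genes called higher, 7.06% of those called lower and 8.73% of those not called. In the same order, a single arm of the element was in 35.8%, 31.7% and 35%, and the AP-1 site in 5.73%, 8.25% and 5.49%. The GC box was in 62.1%, 56.2% and 61.4%, the TATA box in 5%, 5.32% and 4.36%, and the forkhead core in 2.1%, 2.75% and 2.78%. A match is a description of the letters and not a bound site, and elements outside the windows were not searched. The sequences below are shown because they carry the element, in capitals, within the windows of genes called higher, read 5′ to 3′ on the gene's strand; the first pair matches in full, and the other 3 are the windows with 1 base off whose genes had the smallest adjusted p, a window that MICOS10 shares with the read-through gene MICOS10-NBL1 taken once, and were chosen after their values were seen.
LINC02130 (GRCh38.p14 chr16:14370371-14370431, minus strand): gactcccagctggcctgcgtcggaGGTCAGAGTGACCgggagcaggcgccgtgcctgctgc
ZNF669 (GRCh38.p14 chr1:247104494-247104554, minus strand): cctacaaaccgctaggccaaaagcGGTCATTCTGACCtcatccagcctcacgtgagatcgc
ADAMTSL5 (GRCh38.p14 chr19:1513204-1513264, minus strand): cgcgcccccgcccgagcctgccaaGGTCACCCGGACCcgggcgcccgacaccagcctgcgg
MICOS10 and MICOS10-NBL1 (GRCh38.p14 chr1:19596810-19596870, plus strand): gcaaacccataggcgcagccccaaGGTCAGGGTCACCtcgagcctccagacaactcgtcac
C5AR2 (GRCh38.p14 chr19:47337010-47337070, plus strand): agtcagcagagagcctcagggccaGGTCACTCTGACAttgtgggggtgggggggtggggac

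The genes of these windows responded to different degrees. LINC02130, a long non-coding RNA gene, went from 1.49 and 1.61 to 4.67 and 6.57 CPM (1.83 ± 0.336, adjusted p = 7.1e-04), and ZNF669, a zinc finger gene, from 19 and 17.1 to 22.7 and 27 CPM (0.45 ± 0.133, adjusted p = 0.035). The full element therefore stood beside rises of 1.83 and 0.45, of which the larger was that of a gene with few counts. Among the genes with the lowest counts, those called had a median absolute log2 change of 1.71. The size of its rise therefore does not set LINC02130 apart. ADAMTSL5, a secreted matrix protein, went from 18.8 and 20.9 to 73.1 and 68.1 CPM (1.83 ± 0.106), MICOS10, a part of the mitochondrial inner membrane complex, from 85.2 and 80.8 to 136 and 140.1 CPM (0.73 ± 0.0648, adjusted p = 5.9e-08), and C5AR2, a complement receptor, from 39.7 and 35.5 to 81.2 and 71 CPM (1.02 ± 0.0934). MICOS10-NBL1 changed by 0.94 ± 0.0625 (adjusted p = 6.6e-10), and since it overlaps MICOS10 their counts may share reads.

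The receptor-blocking drugs were given in complete medium, and their comparisons share no library with that of estradiol. Fulvestrant lowered 245 genes (1.05% of those tested), and 235 of these (95.9%) were among the 1177 genes that estradiol raised, which is 19.97% of that group and 45.3% of those raised at least 2-fold. It raised 25 genes (0.107%), of which 24 were lower with estradiol. No gene was called in the same direction by both. IGFBP4 changed by -1.88 ± 0.099 with fulvestrant, from 146 and 124 to 37.8 and 35.8 CPM, CXCL12 by -1.86 ± 0.106, RUNX1 by -1.33 ± 0.0517 and SPINK4 by -1.96 ± 0.133, and IL1R1 and ARID5B rose by 0.57 ± 0.106 and 0.30 ± 0.0553. Strong rises with estradiol were not all called with fulvestrant: RET changed by -0.39 ± 0.161 (adjusted p = 0.55 in edgeR's test), CACNA1H, a T-type calcium channel, by -0.35 ± 0.264, COL27A1, a fibrillar collagen, by -0.17 ± 0.157, and HSPB8 by -0.19 ± 0.109. A missing call does not show a lack of change. Of the 289 genes raised at least 2-fold 262 lay below 0 with fulvestrant, as did 976 of the 1177 raised. The median over all tested genes was 0.01. HSPB8 read 35 and 31.4 CPM with vehicle in complete medium. The ribosomal protein genes, of which 40 rose with estradiol, had a median of -0.05 with fulvestrant and none was called by edgeR or DESeq2, with 2 lower at an unadjusted p under 0.05. Without fulvestrant library 3 the overlap of 235 genes was 127, and without complete vehicle library 3 it was 142.

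**Figure D5:**
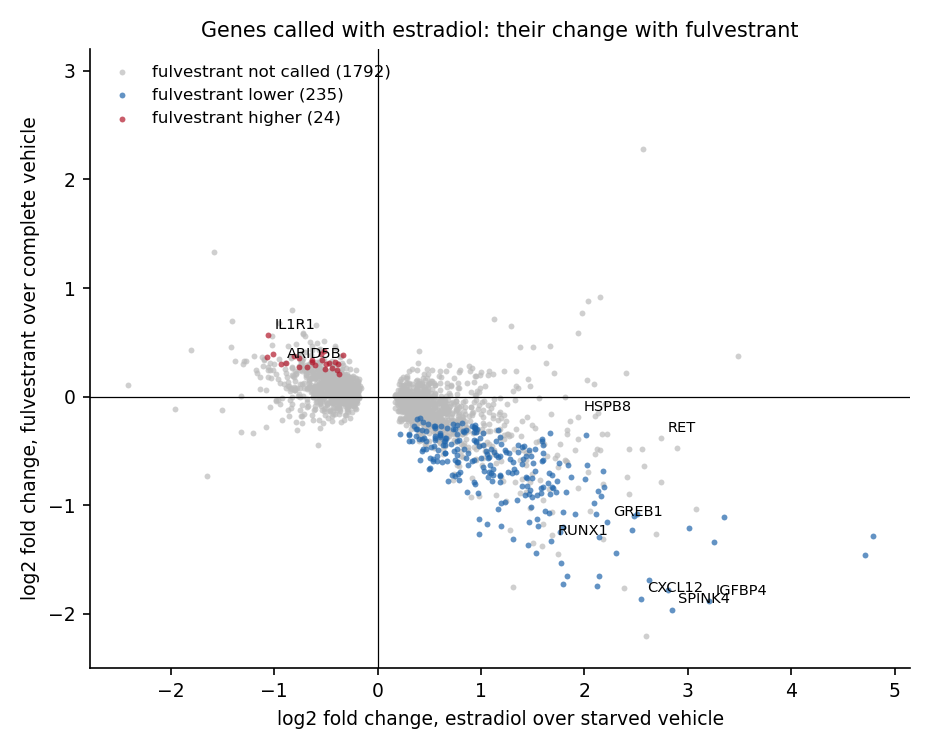
Log2 fold change with fulvestrant in complete medium against that with estradiol in starved cells, for the 2051 genes called with estradiol. Blue points are the 235 genes that fulvestrant lowered, all to the right of 0, and red points the 24 that it raised, all to the left; grey points were not called with fulvestrant and include RET and HSPB8.

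Raloxifene lowered 112 genes (0.479%), of which 104 were higher with estradiol, and tamoxifen lowered 11 (0.0471%), all of them higher with estradiol. The genes that estradiol raised had a median log2 fold change of -0.16 with fulvestrant, -0.11 with raloxifene and -0.06 with tamoxifen, and these 3 medians share the same vehicle libraries. The overlap with raloxifene was 28 without complete vehicle library 3, 52 without library 4 of that group and 53 without raloxifene library 3. That with tamoxifen was 0 without complete vehicle library 3, 2 without tamoxifen library 3, and 5 without complete vehicle library 4 or without either starved vehicle library.

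Levels after estradiol were also set beside those of cells kept in complete medium with vehicle, as values only and with no test. These groups differ in both medium and treatment. Of the 289 genes raised at least 2-fold, both estradiol libraries read above both complete medium libraries for 210 (72.7%) and below both for 30 (10.4%), beside 28% and 27.6% of all tested genes. The 289 genes were chosen by these estradiol libraries, so nothing is read from the difference. B4GALT1 read 309.8 and 268 CPM in complete medium against 886 and 852 after estradiol, and CADM1 370.4 and 379.6 against 798 and 863. PDZK1 was on the other side, with 75.9 and 78.4 CPM in complete medium against 28.1 and 27.6, as were GATA4 with 47.9 and 43 against 30.6 and 27.2 and CXCL12 with 115 and 118 against 76.7 and 73.6. ESR1 read 1999 and 1993 CPM in complete medium and 1357 and 1424 after estradiol. GREB1, with 1354 and 1266 CPM in complete medium and 1487 and 1410 after estradiol, and MYC, with 142 and 124 and 154 and 146, were close in the 2 states.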

How the data were processed

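The authors deposited raw counts per gene, whole numbers with no normalization. The submitters' processing notes name build hg38, SAMtools 1.9, Bowtie2 2.4.4 and cutadapt 1.8.1. They do not name the counting tool, its annotation, its strand setting or the counted part of a gene. Of 60605 gene IDs, 142 had no symbol (0.281% of counts) and were kept under their ID, and 1195 second IDs of a symbol (0.074%) were left out. With R 4.3.3 and edgeR 4.0.16, filterByExpr and TMM were applied, and all 12 libraries entered 1 quasi-likelihood fit with a mean for each of the 6 groups. Benjamini-Hochberg adjustment covered the 23375 tested genes, with a threshold of 0.05. The script was tested on simulated data. Neither pair of starved libraries was a plain copy: the chi-square per gene was 1.20 between the vehicle libraries and 1.59 between the estradiol libraries. Counting noise alone gives a value near 1, so separate cultures and repeat libraries of 1 culture cannot be told apart by it. Other pairs of libraries were not checked. Totals of the 4 starved libraries, from 5579262 to 7377576 counts, limit the precision of low genes. Over all 12 libraries the totals ran from 3682311 in raloxifene library 4 to 7856803 in raloxifene library 3. Positions, spans and promoter sequences are those of RefSeq, GRCh38.p14, matched by symbol or Ensembl ID for 40118 of 59410 genes. Alternatives were DESeq2 1.42.0, other scalings and filters, a replicate block and leaving out each library. The 44 gene lists, and the rule for named genes, were chosen with earlier results of these data known. The rule took the 30 genes that rose most, the 30 that fell most and the 15 of largest gain and loss among called genes with no overlap and a mean count of at least 50, from every list at most the 6 members of smallest adjusted p, 10 genes that rose from under 1 CPM, rows of at least 4 called neighbours, 10 genes of opposite call with fulvestrant, promoters with the element, the 5 longest genes called higher and a short fixed set. The results of a few genes that the rule took are not reported here. List members named beyond the rule were chosen after their values were seen.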

Additional observations from a re-analysis of the deposited data

How the results depend on the processing

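With DESeq2 in place of edgeR, 702 genes were higher and 376 lower, 15 of them at least 2-fold lower, 17 genes were higher with estradiol and lower with tamoxifen, and 14 lower with estradiol and higher with fulvestrant. Without TMM scaling the last count was 38. Without a filter on low counts the overlaps were 184 genes for raloxifene and 51 for tamoxifen. Same-numbered vehicle and estradiol libraries deviated with a correlation across genes of 0.12, but the labels do not say that a number marks a shared culture. With the replicate block 1407 genes were lower, the overlaps were 230 for raloxifene and 82 for tamoxifen, and 71 genes were lower with estradiol and higher with fulvestrant. The 203 named genes called with estradiol were all called with the block. Leaving out 1 library at a time gave 701 to 822 genes higher, 443 to 504 lower, 18 to 35 at least 2-fold lower, and 239 to 262 at least 2-fold higher. The overlaps ranged from 127 to 229 for fulvestrant, 28 to 116 for raloxifene and 0 to 13 for tamoxifen, and from 6 to 23 for genes lower with estradiol and higher with fulvestrant. Without a library the lone one of its group was assumed to vary like those of the other groups. In all, 585 genes higher and 297 lower were called whichever of the 4 starved libraries was left out. Of the 203 named genes called, 155 were called under every alternative, and none changed direction. DUSP1, DUSP4, DUSP6, EGF, EGLN3, ENO1, FGF12, FGFR1, FGFR2, FOS, GPC6, GRB14, HK2, HNF4G, HSP90AB1, IER3, IER5L, INHBA, IRS1, KAZN, KLF12, KRT7, KRT18, KRT19, MX2, NCOA2, NR2F1, NR3C1, NR3C2, NRP1, OAS3, PDGFC, PRMT1, RARG, RIGI, SEMA4B, SKP2, SMU1, SPRED1, STC1, TBL1XR1, TFAP2C, THRA, VDR, WNT4, ZNF669, ZNF703 and ZNRF3 lost their call under at least 1, chiefly DESeq2 or a library left out. ACTB, which was not called, lay between -0.048 and 0.003 with 1 library left out, and its sign changed without vehicle library 4. The classes of gene length within the 25% of genes with the highest counts were an alternative chosen after seeing the data. Low counts limit the response that could be seen: in the 25% of genes with the lowest counts the called genes had a median absolute log2 change of 1.71, and in the highest 25% 0.39.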

Other observations

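Some called genes lay outside the lists. CYP4Z1, a cytochrome P450 of mammary tissue, fell from 28 and 27.3 to 13.4 and 16.1 CPM (-0.92 ± 0.149). CYB5A, a cytochrome b5 that serves such enzymes, fell from 66.6 and 69 to 35 and 38.2 CPM (-0.89 ± 0.0876), and ENPP1, a nucleotide pyrophosphatase, fell as well (-0.94 ± 0.104). ACOT1, ACOT2, ACOT4 and ACOT6, thioesterases of fatty acyl-CoA that lie in a row on chromosome 14 with HEATR4 and RIOX1, all rose, by 0.56, 0.72, 0.80 and 0.66. Their sequences are alike and 5 of the 6 genes of the row overlap the one before, so their counts may share reads.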
